A study of Rattus norvegicus with 47 samples.

Results

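The 9 genes described here, Mbp, Mag, Mog, Mobp, Cnp, Ugt8, Cldn11, Mal and Opalin, encode structural proteins, adhesion proteins and enzymes of the myelin sheath and of mature oligodendrocytes, and were taken by name from the 15319 genes listed for each brain region. They were chosen with earlier results of these data known: an oligodendrocyte list to which such genes belong had been lower in sham females than in sham males in striatum and higher in cerebellum. That contrast is therefore given below as values with no test. The sham libraries that set it also serve in every comparison of PCB52 with sham. The directions, p values and confidence intervals of those comparisons are therefore not independent of the choice of genes. The study asked how inhaling PCB52 (2,2′,5,5′-tetrachlorobiphenyl, an airborne polychlorinated biphenyl) alters the brain transcriptome of adolescent rats.

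Sprague-Dawley rats arrived at 28 days of age and were assigned to exposure at 42 days (females) or 39 days (males). Sex and age at assignment therefore cannot be told apart in any comparison of the sexes. The exposed animals breathed air carrying PCB52 in a nose-only system for 4 h a day over 28 days. The comparison animals are labelled sham, and what air they received is not given in the sources used here. Punches of striatum and of cerebellum were taken, and their messenger RNA was sequenced. Counts were available for 6 PCB52 females, 6 sham females, 6 PCB52 males and 4 sham males in striatum, and for 6 PCB52 females, 6 sham females, 5 PCB52 males and 5 sham males in cerebellum. By the labels each library came from 1 animal, and the 2 regions of an animal share its number. Some sham libraries held transcripts of both sexes, as given below. Total counts ran from 5684508 to 8914523 per library in striatum and from 6524400 to 15865054 in cerebellum.

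Oligodendrocytes wrap axons of the central nervous system in myelin, a stack of compacted membrane that speeds conduction and supports the axon. Compaction, adhesion to the axon, sealing of the sheath and its galactolipid-rich membrane each rest on dedicated gene products, and most of these are made at high level once an oligodendrocyte matures. The transcription factors Myrf, Sox10, Olig1 and Olig2 drive this programme. In tissue punches the level of such a gene follows both the number of oligodendrocytes and the RNA made by each, and fewer cells and less RNA per cell cannot be told apart.

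The region labels were set against marker lists. Summed over 12 markers of striatal projection neurons, striatal libraries held 6700.5 to 15894.6 CPM (the count of a gene as a share of the normalised library size, scaled up to a common total) and cerebellar libraries 447.9 to 706.6 CPM. Summed over 10 markers of cerebellar granule cells, striatal libraries held 318.6 to 828.7 CPM and cerebellar libraries 5141.7 to 8686.5 CPM. All 9 myelin genes passed the filter on low counts in both regions. A few libraries stood apart. Striatum sham male 3, cerebellum sham females 8 and 10 and cerebellum sham males 9 and 11 held transcripts of both sexes, with Xist and the Y-linked Eif2s3y both above 3 CPM. All of them were sham libraries. Cerebellum sham male 9 had 264.6 CPM of Xist and 9.915 CPM of Eif2s3y, and sham male 11 had 314.2 and 31.7 CPM. The other cerebellar males had at most 0.7427 CPM of Xist, and 60.61 to 82.17 CPM of Eif2s3y. A marker list of another tissue stood more than 2 log2 units above the region median in striatum PCB52 females 14 (cortical neurons), 20 (choroid plexus) and 22 (granule cells), striatum PCB52 male 19 (cortical neurons) and cerebellum sham male 1 (choroid plexus). Results are given with and without these libraries where they moved.

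The promoters are shown because Myrf, a direct activator of myelin genes, binds the words CTGGCAC or CTGGTAC. Windows of 250 bases upstream of the annotated start were taken from RefSeq (assembly GRCr8) for 8 of the genes, with 2 starts for Mbp. Mog was matched to no window. A Myrf-type word, on either strand, stood in the windows of Mag, Cnp, Cldn11, Mal and Opalin, 5 of 8 genes. Counted by window this was 5 of 9, against 5.48% of all 33469 rat windows of the same length. The stretches around the match follow, read 5′ to 3′ along the gene, with the matched word in capitals. They lie at chr1:95291082-95291188 on the minus strand (Mag), chr10:86011330-86011436 on the plus strand (Cnp), chr2:114149603-114149709 on the minus strand (Cldn11), chr3:135341493-135341599 on the minus strand (Mal) and chr1:249858191-249858257 on the minus strand (Opalin).
Mag: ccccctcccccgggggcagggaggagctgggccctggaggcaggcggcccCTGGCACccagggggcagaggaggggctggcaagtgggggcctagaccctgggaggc
Cnp: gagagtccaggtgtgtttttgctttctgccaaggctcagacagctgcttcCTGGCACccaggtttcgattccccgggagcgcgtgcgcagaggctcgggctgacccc
Cldn11: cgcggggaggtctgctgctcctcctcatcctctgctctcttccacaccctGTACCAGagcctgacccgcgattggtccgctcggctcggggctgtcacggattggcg
Mal: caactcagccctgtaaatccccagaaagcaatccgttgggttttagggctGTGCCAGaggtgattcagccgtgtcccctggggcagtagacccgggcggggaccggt
Opalin: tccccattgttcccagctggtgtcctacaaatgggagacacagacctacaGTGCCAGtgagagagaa
The word lay 94 to 88 bases upstream of the start in Mag, 124 to 118 in Cnp, 120 to 114 in Cldn11, 126 to 120 in Mal and 17 to 11 in Opalin. Mag and Cnp carried it on the gene's own strand, and Cldn11, Mal and Opalin on the other. Sox-type words (ACAAAG or ACAATG, both strands) stood in the windows of Mbp, Mag, Mobp, Cnp and Opalin, against 25.3% of all windows, and Mobp held 8 of them. The E-box CAGCTG stood in those of Mbp, Cnp and Opalin (12% of all windows), and the GC box GGGCGG in those of Mbp, Cnp, Ugt8, Cldn11 and Mal (30.5%). No window of these genes held TATAAA (12.9%). These are letter matches only, and no binding was measured.

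Region was the comparison in which the myelin genes differed. All 9 were higher in striatum than in cerebellum, both in PCB52 animals, with 1.62- to 3.99-fold differences, and in sham animals, with 1.54- to 3.67-fold differences. Opalin differed most and Cnp least in both sets of animals. All 9 passed an adjusted p of 0.05 in both sets of animals (edgeR's quasi-likelihood test, Benjamini-Hochberg over 12446 genes). This fit did not pair the regions, although 21 animals gave a library of each. The fit with the animal as a block is in the closing section. The background of this test was high: 76.9% of all genes tested passed in PCB52 animals and 69.8% in sham animals, with 36.5% and 34.3% of all genes passing as higher in striatum. The median log2 difference of the 9 genes was 1.41 in PCB52 animals and 1.23 in sham animals, against -0.04 and -0.03 over all genes tested.

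Among the genes of the compact sheath, Mbp encodes the basic protein that holds the cytoplasmic faces of the membrane together. In PCB52 animals its lowest, median and highest levels were 7641, 9831 and 16354 CPM in striatum (n = 12) and 2297, 3407 and 6572 CPM in cerebellum (n = 11), scaled over both regions jointly. In sham animals they were 4648, 9044 and 18453 CPM in striatum (n = 10) and 2753, 3979 and 6802 CPM in cerebellum (n = 11). The regions did not overlap in PCB52 animals and overlapped in sham animals. Its log2 difference was 1.43 ± 0.20 (SE of the fit) in PCB52 animals and 1.24 ± 0.21 in sham animals. Mobp, another basic protein of the cytoplasmic side, ran at 1010 to 1919 CPM in striatum and 254.8 to 652.1 CPM in cerebellum of PCB52 animals, and at 518.8 to 2265 CPM in striatum and 282.5 to 741.1 CPM in cerebellum of sham animals. It was 3.13-fold higher in striatum in PCB52 animals and 2.64-fold in sham animals.

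Mal, a raft-associated proteolipid that takes part in sorting membrane to the sheath, was 2.93-fold higher in striatum in PCB52 animals and 3.42-fold in sham animals. Its lowest, median and highest levels were 385.1, 527.7 and 728.2 CPM in striatum and 91.57, 180.0 and 336.9 CPM in cerebellum of PCB52 animals, and 320.5, 530.5 and 987.1 CPM in striatum and 117.5, 165.7 and 252.4 CPM in cerebellum of sham animals. The lowest striatal library exceeded the highest cerebellar one in both sets of animals. Opalin, a transmembrane protein found almost only in oligodendrocytes, had 136.2, 173.3 and 297.7 CPM in striatum against 31.92, 46.23 and 64.89 CPM in cerebellum of PCB52 animals. In sham animals it had 80.57, 176.1 and 249.0 CPM in striatum against 35.30, 47.81 and 62.71 CPM in cerebellum. Its regions did not overlap in either set. The Opalin difference was 2.00 ± 0.14 on the log2 scale in PCB52 animals (adjusted p = 5.48e-16) and 1.88 ± 0.15 in sham animals (adjusted p = 1.04e-14), by edgeR.

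The adhesion and junction proteins differed less than Opalin, Mal and Mobp. Mag, which holds the innermost membrane to the axon, was 2.65-fold higher in striatum in PCB52 animals and 2.34-fold in sham animals. Mog, a glycoprotein of the outermost surface, was 1.80-fold higher in PCB52 animals and 1.85-fold in sham animals. Counts assigned to Mog carry a limit, since its locus overlaps that of Zfp57 in the GRCr8 annotation and the use of strand in counting is not given in the sources used here. Cldn11, the claudin of the tight junctions that seal the sheath, was 2.05-fold higher in PCB52 animals and 2.07-fold in sham animals.

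The enzymes overlapped between regions. Cnp, the cyclic nucleotide phosphodiesterase of the uncompacted cytoplasmic channels, had lowest, median and highest levels of 770.9, 982.3 and 1372 CPM in striatum and 416.9, 622.0 and 846.1 CPM in cerebellum of PCB52 animals, and of 718.6, 977.1 and 1592 CPM in striatum and 489.7, 656.0 and 1002 CPM in cerebellum of sham animals. Its log2 difference was 0.70 ± 0.13 in PCB52 animals and 0.63 ± 0.14 in sham animals (edgeR adjusted p = 1.37e-05 and 0.000148). Ugt8, which makes galactocerebroside, the main glycolipid of myelin, had 132.3, 157.1 and 272.8 CPM in striatum and 46.13, 55.84 and 150.7 CPM in cerebellum of PCB52 animals. In sham animals it had 72.45, 166.5 and 247.5 CPM in striatum and 63.07, 103.3 and 153.8 CPM in cerebellum. Its log2 difference was 1.16 ± 0.20 in PCB52 animals and 0.76 ± 0.21 in sham animals.

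Counting genes whose regions did not overlap, 5 of the 9 (Mbp, Mag, Mobp, Mal and Opalin) lay wholly higher in striatum in PCB52 animals and 2 (Mal and Opalin) in sham animals. Of all genes tested, 16% did so in PCB52 animals and 15.7% in sham animals. The regional difference was tested between PCB52 and sham animals directly, as the mean of both sexes, and no gene passed by edgeR (0% of 12446, with 2278 at an unadjusted p under 0.05) or limma, while DESeq2 called 3 genes, none of them among the 9. Ugt8 had the lowest adjusted p of the 9 (0.384), with a log2 difference of differences of 0.40 ± 0.29. Without the libraries with a marker list of another tissue the median regional difference of the 9 genes was 1.55 in PCB52 animals, and without those with transcripts of both sexes it was 1.11 in sham animals.

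The same libraries were also compared within animals, with the regions paired by animal number. Of 21 animals with both regions, 17 had all 9 genes higher in striatum. The 21 include animals 3, 8, 9, 10 and 11, for each of which 1 library held transcripts of both sexes. Opalin and Mal were higher in 21 of 21 animals, Mbp, Mag, Mobp and Cldn11 in 20, Cnp and Mog in 19 and Ugt8 in 18. The median difference within an animal was 1.79 log2 units for Opalin, 1.67 for Mal, 1.47 for Mobp, 1.44 for Mag, 1.28 for Mbp, 0.93 for Cldn11, 0.87 for Ugt8, 0.82 for Mog and 0.62 for Cnp. The order had a constant element: Opalin exceeded Cnp in 21 of 21 animals, Opalin had the largest of the 9 differences in 15, and Cnp had the smallest in 14, Ugt8 in 5 and Mog in 2. Sham female 12 had the lowest difference for every one of the 9 genes, below 0 for 7 of them. In that animal the striatal library was the lowest of its region for all 9 genes and the cerebellar library the highest for 5.

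**Figure D1:**
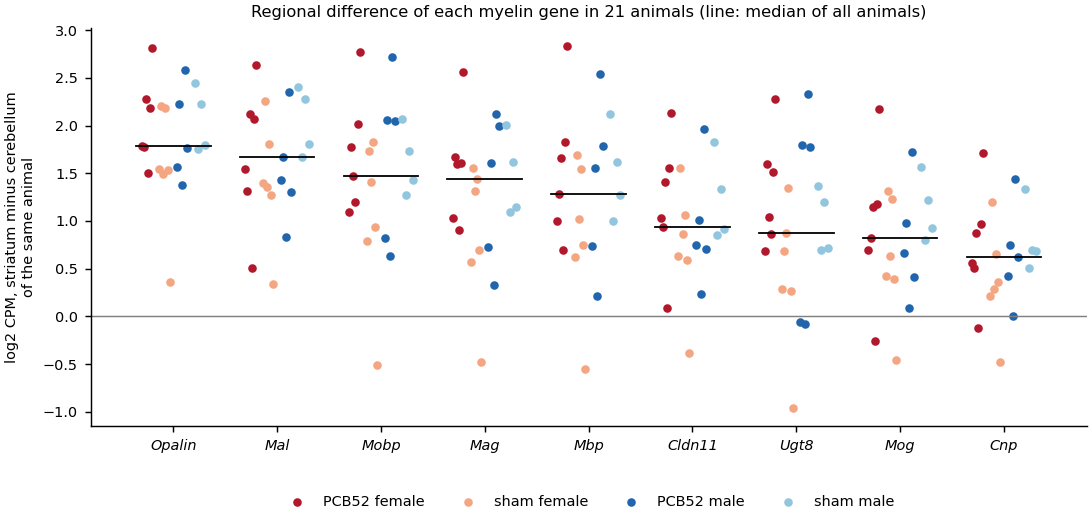
Difference between striatum and cerebellum of the same animal, in log2 CPM (y axis), for each of the 9 myelin genes (x axis); each point is 1 of 21 animals, coloured by exposure and sex, and the line is the median over animals. All points of Opalin and Mal lie above 0, the median falls to 0.62 for Cnp, and 1 sham female is lowest for every gene.

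Genes of other lists chosen around the same biology were read beside the 9, counting genes that passed edgeR's test as higher or lower. Of all genes tested, 36.5% passed as higher in striatum in PCB52 animals and 34.3% in sham animals. Of 14 other myelin proteins measured, 12 were higher and 1 lower in striatum in PCB52 animals, and 11 were higher and 1 lower in sham animals. In sham animals the tetraspanin Tspan2 differed by 1.48 and the junctional adhesion molecule Jam3 by 1.41 log2 units, while Cntn2, which axons make as well as glia, was lower by a log2 difference of -1.05. The gap junction gene Gjb1 had a difference of 0.03 that did not pass. Of 12 enzymes of myelin lipid synthesis, 8 were higher and 1 lower in PCB52 animals, and 6 were higher and 1 lower in sham animals, among them Gal3st1, which sulphates the product of Ugt8, with 1.09 log2 units in sham animals. Of 9 transcriptional regulators of the lineage, 7 were higher and 2 lower in PCB52 animals, and 6 were higher and 2 lower in sham animals. In sham animals Sox8 differed by 1.70, Olig1 by 1.54, Myrf by 1.51, Sox10 by 1.46 and Olig2 by 1.41 log2 units, and St18 and Nkx2-2 were lower at -2.60 and -0.42.

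Genes of earlier stages and of other cells moved with region as well. So did 76.9% of all genes tested in PCB52 animals and 69.8% in sham animals, by edgeR. Of 9 markers of newly formed oligodendrocytes, 7 were higher and 2 lower in striatum in PCB52 animals, and 6 were higher and 2 lower in sham animals. Of 9 precursor markers, 8 were higher and 0 lower in striatum in PCB52 animals, and 7 were higher and 1 lower in sham animals. All 10 microglial markers were higher in both, with median log2 differences of 1.56 in PCB52 animals and 1.76 in sham animals. Summed general neuronal markers, scaled within each region, went the other way, with 4979.6 to 6971.6 CPM in striatal and 9376.6 to 11871.2 CPM in cerebellar libraries. Neurofilament genes summed to 594.7 to 876.8 and 838.2 to 1438.8 CPM. Endothelial markers summed to 461.6 to 736.3 CPM in striatum and 257.6 to 369.7 CPM in cerebellum. Astrocyte sums overlapped, with 5549.4 to 8164.2 and 6005.9 to 8858 CPM. Schwann cells make myelin outside the brain and share some of these genes. Their 6 markers summed to 30.51 to 54.49 CPM in striatal and 6.076 to 18.87 CPM in cerebellar libraries, all 4 that passed the filter were higher in striatum in both sets of animals, and Ncmap was at 0 in every striatal library. The part of these cells in the regional difference of the 9 genes was not tested.

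In the striatum none of the 9 genes differed between PCB52 and sham animals beyond the spread between libraries, in either sex. In females 7 were higher and 2 lower on average in PCB52 animals, with log2 fold changes of -0.05 to 0.22 and a median of 0.06, against 0.00 over all genes tested. In males 1 was higher and 8 lower, with log2 fold changes of -0.14 to 0.03 and a median of -0.06, against 0.00 over all genes tested. None of the 9 passed edgeR's test or had an unadjusted p under 0.05. By edgeR 0% of 12142 genes passed in either sex, with 1633 genes at an unadjusted p under 0.05 in females and 109 in males. DESeq2 called 14 genes in females and 1 in males, limma called 0, and none of these was among the 9. None of the 9 had groups that did not overlap, against 0.577% of all genes in females and 0.387% in males.

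Mbp shows the shape of the data. It had 7895, 8550 and 16380 CPM (lowest, median and highest) in PCB52 females and 4675, 7924 and 18618 CPM in sham females, scaled within striatum. In PCB52 males it had 7648, 10363 and 14484 CPM, and the 4 sham males (animals 1, 3, 9 and 11) had 13575, 11082, 8741 and 9538 CPM. The sham female range enclosed the whole PCB52 female range, and males of both kinds lay inside it. The log2 fold change was 0.13 in females (95% confidence interval -0.38 to 0.64) and -0.01 in males (-0.58 to 0.56). As folds these intervals ran from 0.768 to 1.56 in females and from 0.669 to 1.48 in males.

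Opalin had the largest striatal fold change. It had 137.1, 161.2 and 298.2 CPM in PCB52 females and 81.04, 156.8 and 242.9 CPM in sham females. In PCB52 males it had 168.8, 181.2 and 231.7 CPM, and the sham males had 249.4, 208.5, 174.8 and 175.3 CPM. The groups overlapped, and the ends of the female groups were set by PCB52 female 24 at the top and sham female 12 at the bottom. Its log2 fold change was 0.22 ± 0.20 in females (adjusted p = 0.588, edgeR) and -0.08 ± 0.22 in males (adjusted p = 1). Mag, with a mean of 425.7 ± 104 CPM in PCB52 females and 406.8 ± 197 CPM in sham females (SD, n = 6 each), had the lowest male value of the 9, a log2 fold change of -0.14.

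Single animals set the sign of these small values. Without PCB52 female 24 the female median was -0.10, and without sham female 4 it was 0.32. PCB52 female 24 also stood apart in other cell markers. Its markers of striatal projection neurons summed to 6700.5 CPM, while the lowest sum was 11511 CPM in PCB52 males, 11800 in sham females and 11698 in sham males. Its markers of cortical excitatory neurons had the highest sum of the striatal libraries, 483.7 CPM. The part of these cells in its myelin values was not tested. In males the median of the 9 genes was -0.16 without PCB52 male 21 and 0.01 without sham male 1. Leaving out the 3 females and 1 male with a marker list of another tissue gave medians of 0.26 in females and -0.01 in males. PCB52 female 24 was not among those left out and stayed in this fit. So did sham female 12, which had the highest cortical excitatory sum of the sham females, 324.6 CPM. None of the 9 passed in any of these fits. The female effect exceeded the male effect for all 9 genes, with a median difference of 0.10, but the test of that difference called none of 12142 genes by edgeR, DESeq2 or limma (471 at an unadjusted p under 0.05) and the lowest adjusted p of the 9 was 0.914. That difference takes in the sham values that entered the choice of genes (female minus male median -0.22), so its direction is not independent of that choice.

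**Figure D2:**
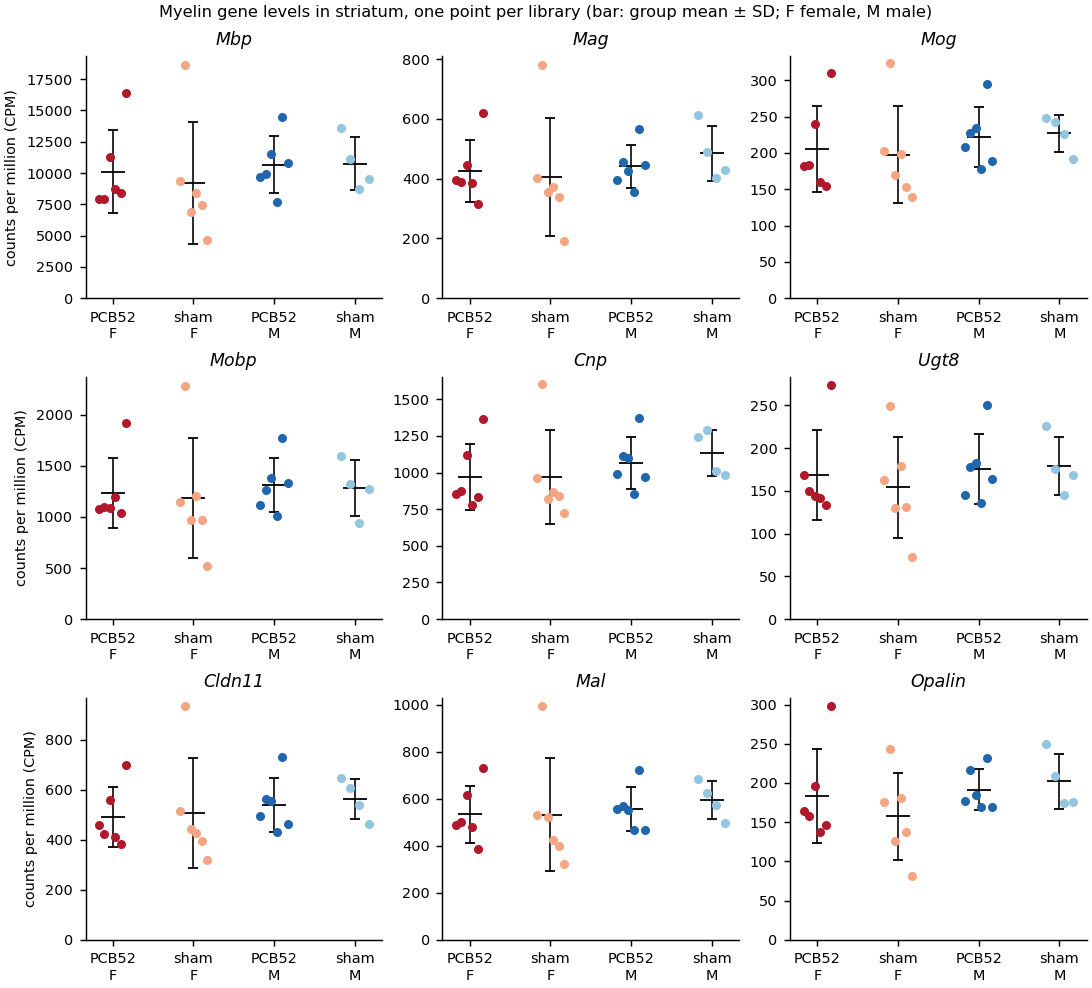
Level of each myelin gene in striatum (y axis, CPM scaled within the region) in PCB52 females, sham females, PCB52 males and sham males (x axis); points are libraries and bars the mean ± SD. Sham female 4 is the highest point for 7 of the 9 genes and sham female 12 the lowest for all 9, and the 4 groups overlap in every panel.

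In the cerebellum all 9 genes were lower on average in PCB52 females than in sham females, with log2 fold changes of -0.77 to -0.15 and a median of -0.44, against 0.02 over all genes tested. None passed edgeR's test, each with an adjusted p of 1. Ugt8, Mag and Mobp alone had an unadjusted p under 0.05. The sham females entered the choice of genes, so these p values and the confidence intervals below are not independent of it. Over all 11690 genes 0% passed by edgeR with 369 at an unadjusted p under 0.05, DESeq2 called 10 genes and limma 0, and none of these was among the 9. The ranges of PCB52 and sham females overlapped for all 9, and 0.231% of all genes had groups that did not. Markers of other cells moved with this comparison on average, none of them passing. All 5 neurofilament genes were lower in PCB52 females, with a median of -0.25 and sums of 923.2 to 1250 CPM in PCB52 females and 1034 to 1439 CPM in sham females. Of 10 microglial markers 9 were lower (median -0.10), and so were all 8 meningeal fibroblast markers (-0.24) and all 6 choroid plexus markers tested (-0.35). Their part in the lower myelin values was not tested.

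Ugt8 had 46.80, 63.17 and 104.4 CPM in PCB52 females and 71.48, 122.9 and 155.9 CPM in sham females, scaled within cerebellum. The median of the PCB52 females lay below the lowest sham female, animal 8, whose library held transcripts of both sexes. That library was the lowest of the sham females for each of the 9 genes. The fold of Ugt8 was 0.586 (95% confidence interval 0.375 to 0.916), the lowest of the 9. Mag had 104.3, 133.6 and 201.2 CPM in PCB52 females and 140.5, 237.7 and 276.6 CPM in sham females, a fold of 0.668 (0.464 to 0.962). For Mag too the PCB52 median lay below the lowest sham female, and the highest PCB52 female below the sham median.

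Mobp had 258.4, 352.6 and 506.5 CPM in PCB52 females and 347.5, 595.6 and 736.3 CPM in sham females, a fold of 0.676. Mbp had 2322, 3386 and 5221 CPM in PCB52 females and 2951, 5144 and 6758 CPM in sham females, a fold of 0.697 (0.472 to 1.03). In both genes the ranges overlapped, the lowest level being that of a PCB52 female and the highest that of a sham female. The lowest sham female in both was again animal 8, with transcripts of both sexes. Cldn11 had a fold of 0.739, Cnp 0.777, Mog 0.820, Opalin 0.819 and Mal 0.901. The levels of Mal were 92.88, 154.7 and 329.7 CPM in PCB52 females and 122.7, 206.1 and 250.8 CPM in sham females. PCB52 female 20 gave the 329.7 and stood above every sham female.

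In males the 9 genes were all higher on average in PCB52 animals, with log2 fold changes of 0.04 to 0.46 and a median of 0.16, against 0.01 over all genes tested. None passed and none had an unadjusted p under 0.05. Over all genes 0% of 11690 passed by edgeR with 1673 at an unadjusted p under 0.05, DESeq2 called 1 gene and limma 0, and none was among the 9. No member had groups that did not overlap, against 0.864% of all genes. Markers of other cells moved here too on average, with none passing. Of 9 Purkinje cell markers 7 were higher in PCB52 males (median 0.40), with sums of 6519 to 10105 CPM in PCB52 males and 6764 to 8724 CPM in sham males, and 8 of 10 microglial markers were higher (0.18). Of 9 precursor markers 8 were lower (median -0.52), as were 7 of 10 astrocyte markers (-0.27), 8 of 10 granule cell markers (-0.25), all 5 neurofilament genes (-0.25) and all 6 choroid plexus markers tested (-1.33). The choroid plexus sum stood far apart in sham male 1, at 2423.6 CPM. The sham male median was 48.26 CPM, and the PCB52 males had a median of 33.83 and a highest of 55.93 CPM. The part of these cells in the male myelin values was not tested.

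Mal had the largest male fold change. It had 208.6, 175.4, 262.5, 140.7 and 188.0 CPM in PCB52 males 13, 15, 19, 21 and 23, and 130.6, 195.8, 120.3, 118.0 and 141.9 CPM in sham males 1, 3, 7, 9 and 11. Of the PCB52 males, 4 of 5 lay above 4 of the 5 sham males, and sham male 3 was the exception. Its log2 fold change was 0.46 ± 0.27 (adjusted p = 0.314, edgeR). Ugt8 instead lay at 2 levels among the PCB52 males, with 152.7 and 143.4 CPM in males 13 and 19 and 50, 49.44 and 46.80 CPM in males 15, 21 and 23, against 87.79, 107.7, 66.62, 63.34 and 103.6 CPM in the sham males. The sham males lay between those levels, and the log2 fold change of Ugt8 was 0.04 ± 0.34. Mbp had 5887, 3320, 6603, 2478 and 3110 CPM in the PCB52 males and 3140, 5491, 2807, 2846 and 3990 CPM in the sham males, so that PCB52 males 19 and 13 again lay above every sham male. Of these sham males, 9 and 11 held transcripts of both sexes.

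The opposite directions in the sexes were tested as a difference of effects. The female effect was below the male effect for all 9 genes, with log2 differences of -0.82 to -0.45 and a median of -0.70, against -0.01 over all genes tested. This difference takes in the sham female minus male values that entered the choice of genes, whose median was 0.40. Its direction and p are therefore not independent of that choice. Age at assignment also differed between the sexes, so a difference by sex and one by age cannot be told apart. In the PCB52 animals alone the female minus male median was -0.28. Cldn11 alone had an unadjusted p under 0.05 (log2 difference -0.75 ± 0.34), and the adjusted p was 0.774 for each of the 9 by edgeR. By edgeR 0% of 11690 genes passed, with 254 at an unadjusted p under 0.05. DESeq2 called 4 genes and limma 0, none among the 9. Averaged over the sexes, PCB52 minus sham had a median of -0.13 for the 9 genes in cerebellum and 0.01 in striatum, with no call among them in either region. Of all genes tested, 0% passed by edgeR in that average in both regions, with 1727 in cerebellum and 704 in striatum at an unadjusted p under 0.05. For the same average DESeq2 called 18 genes in cerebellum and 0 in striatum and limma 0 in both, none of them among the 9.

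The cerebellar medians also moved with single libraries. Leaving out PCB52 female 20 gave a female median of -0.66, and leaving out PCB52 female 22 gave -0.32. The male median was 0.02 without PCB52 male 19 and 0.29 without sham male 3. Without the 4 sham libraries that held transcripts of both sexes the female median was -0.58 and the male median 0.11. All 9 genes kept a lower mean in PCB52 females in each of these fits, and none passed.

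**Figure D3:**
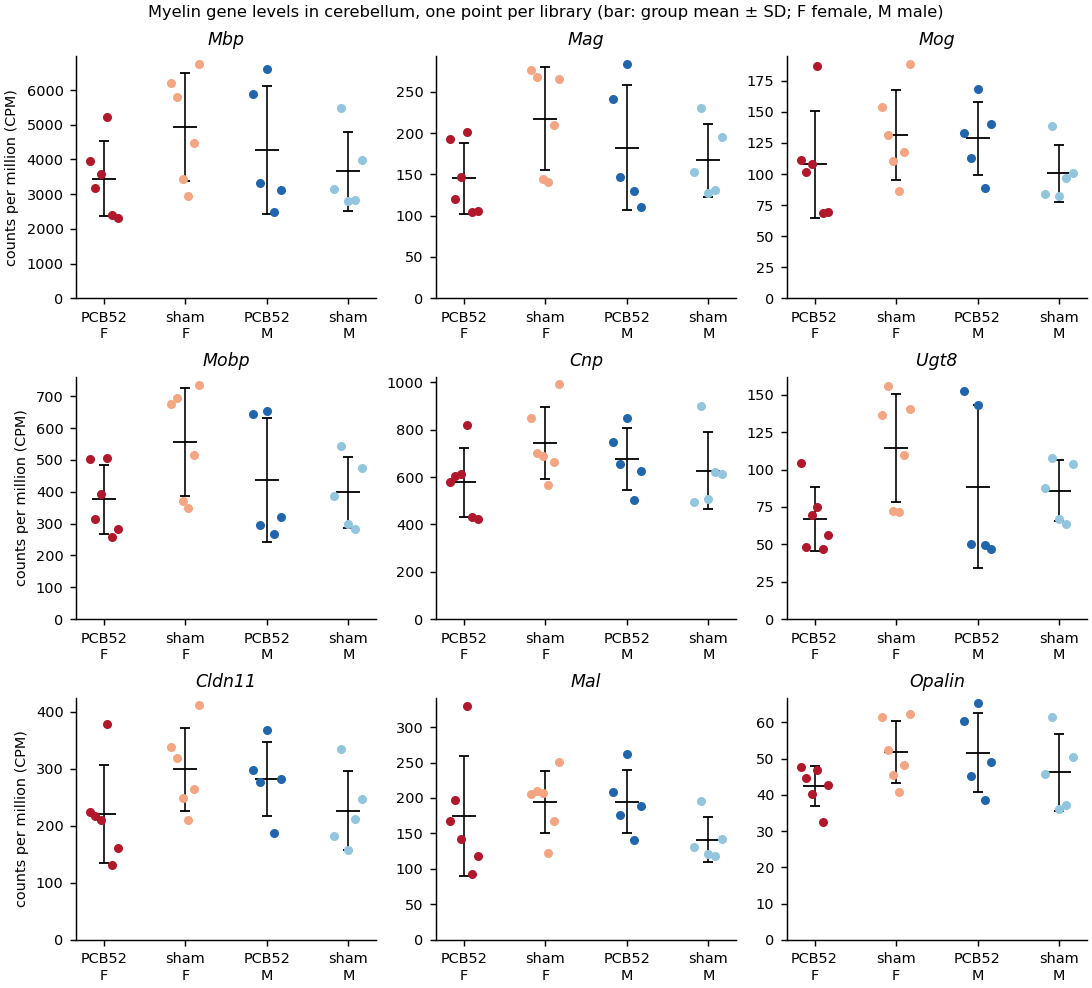
Level of each myelin gene in cerebellum (y axis, CPM scaled within the region) in PCB52 females, sham females, PCB52 males and sham males (x axis); points are libraries and bars the mean ± SD. Sham females have the highest median for 8 of the 9 genes, the PCB52 and sham ranges overlap in every panel, and the 5 PCB52 males split into 2 levels for Ugt8.

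**Figure D4:**
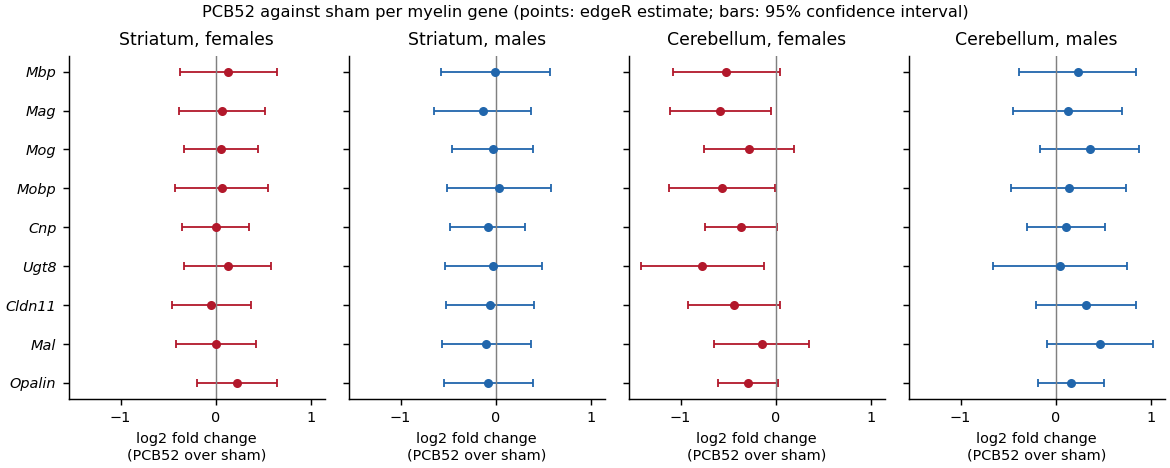
Log2 fold change of PCB52 over sham (x axis) for each myelin gene (y axis) in each region and sex; points are the edgeR estimates and bars the 95% confidence intervals. Estimates sit near 0 in striatum, below 0 for all 9 genes in cerebellar females, where the intervals of Ugt8, Mag and Mobp do not reach 0, and above 0 in cerebellar males. The sham libraries compared here entered the choice of genes, so estimates and intervals are not independent of it.

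The list of other myelin proteins was read over the same cerebellar comparison. In females 13 of 14 were lower on average in PCB52 animals, with a median of -0.27, and 11 of 12 lipid enzymes were lower, with a median of -0.18. In males 10 of 14 and 9 of 12 were higher. None was called. These lists were also chosen with earlier results of these data known and were read in the same libraries. Their directions are therefore not separate from those of the 9 genes. In females the regulators Myrf and Sox10 had log2 fold changes of -0.42 ± 0.33 and -0.40 ± 0.23, neither passing. Averaged over the sexes, the lowest unadjusted p of the oligodendrocyte lists (other myelin proteins, lipid enzymes, regulators, newly formed cells and precursors) in cerebellum were those of the precursor receptor Pdgfra (-0.47 ± 0.15) and of Far1, which makes fatty alcohols for ether lipids (-0.47 ± 0.19), both with an adjusted p of 0.326 by edgeR. Tmem163, a zinc transporter of newly formed oligodendrocytes, had 0.25 ± 0.10 (edgeR adjusted p = 0.326). In striatum the lowest within the same lists was that of the ceramide desaturase Degs1 (-0.13 ± 0.07, edgeR adjusted p = 0.774). The markers of striatal projection neurons moved with the female comparison in striatum, with 12 of 12 lower on average in PCB52 females and a median of -0.26, none passing. Markers of other regions moved the other way in that comparison. All 7 granule cell markers tested were higher in PCB52 females, with a median of 1.10, 5 of them at an unadjusted p under 0.05, and sums of 412.7 to 828.7 CPM in PCB52 females and 347.9 to 397.7 CPM in sham females. All 8 cortical excitatory markers (median 0.48), all 6 choroid plexus markers tested (3.88) and all 8 meningeal fibroblast markers (0.42) were higher as well, and the highest choroid plexus and meningeal sums were both those of PCB52 female 20. In striatal males 7 of 8 cortical excitatory markers were higher in PCB52 animals (median 1.88). None of these passed, and their part in the striatal values of the 9 genes was not tested.

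Sex was tested in the PCB52 animals, whose libraries did not enter the choice of genes. Females were assigned at 42 days of age and males at 39 days, so sex and age cannot be told apart. All 9 genes were lower on average in PCB52 females than in PCB52 males in both regions. The log2 differences ran from -0.14 to -0.05 with a median of -0.08 in striatum, and from -0.40 to -0.16 with a median of -0.28 in cerebellum. None passed and none had an unadjusted p under 0.05. The lowest unadjusted p was 0.429 for Cnp in striatum and 0.0878 for Opalin in cerebellum (edgeR adjusted p = 0.948 and 0.708). Of all genes 0.0412% passed in striatum (5 genes, with 569 at an unadjusted p under 0.05; 5 by DESeq2 and 6 by limma) and 0% in cerebellum (379 at an unadjusted p under 0.05; 9 by DESeq2 and 2 by limma). No group of the 9 stood clear of the other, against 0.28% of all genes in striatum and 0.103% in cerebellum. Without PCB52 female 24 the striatal median was -0.26 and without PCB52 male 21 it was 0.02. Without the libraries with a marker list of another tissue it was 0.07.

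In the sham animals, which did enter the choice, the female minus male log2 values were -0.36 (Opalin) to -0.12 (Mobp) in striatum and 0.17 (Opalin) to 0.48 (Mobp) in cerebellum. Their medians were -0.22 in striatum and 0.40 in cerebellum. Sham libraries with transcripts of both sexes entered these values. They were male 3 in striatum, and females 8 and 10 and males 9 and 11 in cerebellum. No values without them are given for this contrast. The sham female cerebellar values that enter here are the ones the PCB52 females are compared with.

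The 9 genes moved together from library to library. With each library centred on its group, every gene followed the mean of the other 8, with Pearson's r of 0.926 (Mal) to 0.975 (Mag) over the 22 striatal libraries and 0.801 (Ugt8) to 0.987 (Mbp) over the 22 cerebellar libraries. These are descriptions over libraries that share a scaling, with no test. Sham female 4 was the highest striatal library for 7 of the 9 genes, and PCB52 female 24 for Ugt8 and Opalin. In cerebellum sham female 12 was the highest for 5, PCB52 male 19 for 2, PCB52 female 20 for Mal and sham female 4 for Ugt8, and the lowest were PCB52 females 22 (7 genes) and 24 (2 genes). Summed over the 9 genes, the striatal libraries ran from 11677 to 22600.5 CPM in PCB52 females, 7046 to 26040 in sham females, 11247 to 20428 in PCB52 males and 12750 to 19085 in sham males. The cerebellar libraries ran from 3552 to 7766 CPM in PCB52 females, 4534 to 9807 in sham females, 3886 to 9399 in PCB52 males and 4202 to 8005 in sham males. The standard deviation between libraries of a group was 0.31 (Cnp) to 0.46 (Mbp) log2 units in striatum, against a median of 0.25 over all genes tested, and 0.27 (Opalin) to 0.57 (Ugt8) in cerebellum, against 0.31.

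**Figure D5:**
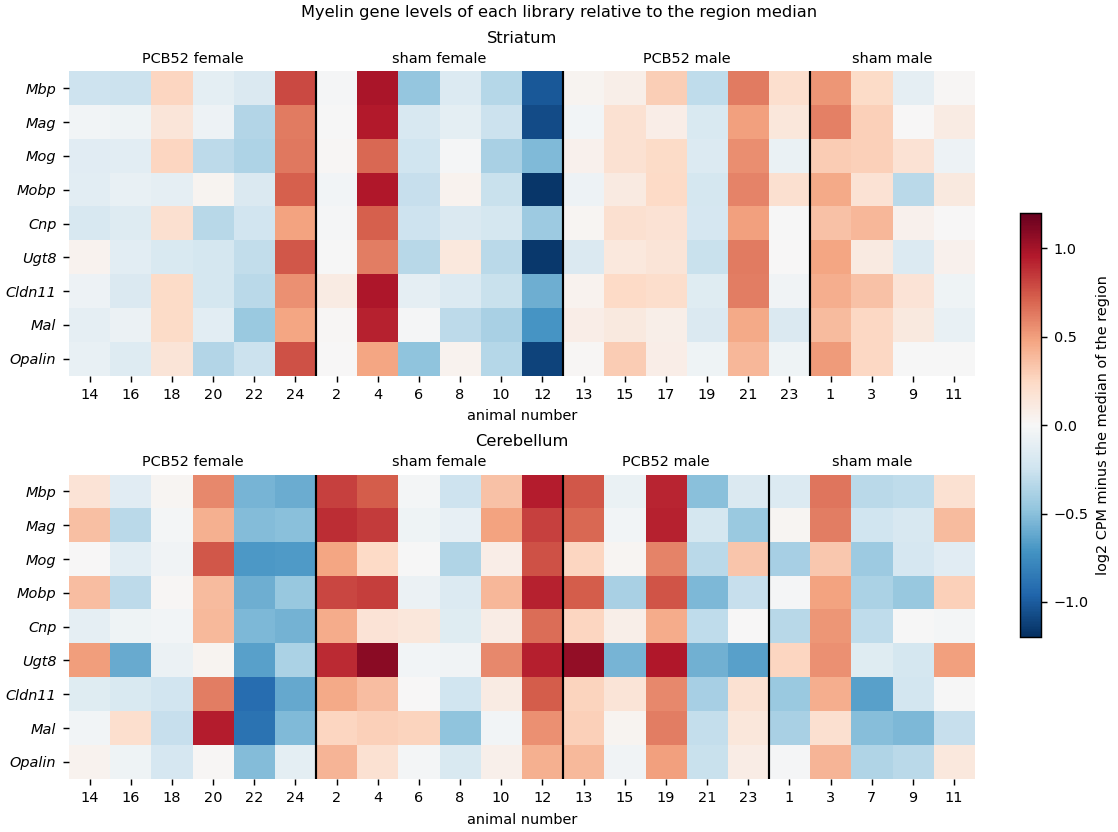
Deviation of each myelin gene (down the page) from the median of its region, in log2 CPM (colour), in each library (across, animal numbers grouped by exposure and sex), for striatum and cerebellum. Most libraries share 1 colour over the 9 genes, as in striatum sham females 4 (high) and 12 (low).

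Genes outside the 9 were ranked by how closely their levels followed the mean of the 9. In striatum those near the top included Slc44a1 (r = 0.983), Gpr37 (0.966), S1pr5 (0.963), Fa2h (0.961) and Tubb4a (0.959). In cerebellum they included Tf (r = 0.983), Pip4k2a (0.947), Ndrg1 (0.947) and Fa2h (0.938). Without the 2 libraries farthest from the median these r were 0.907 to 0.963 in striatum and 0.932 to 0.976 in cerebellum. Spearman's rho over all 22 libraries was 0.888 to 0.947 in striatum and 0.919 to 0.988 in cerebellum. Fa2h, the fatty acid hydroxylase of myelin galactolipids, appeared in both regions.

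Ratios of counts within a library showed where the 9 genes did not keep step. Mal to Ugt8 was 2.37 to 4.42 over the striatal libraries, and 1.34 to 4.39 in cerebellum. In cerebellum most libraries lay at 2.1 or below, and PCB52 females 20 (4.39) and 16 (4.09), PCB52 males 23 (4.02), 15 (3.51) and 21 (2.85) and sham female 6 (2.87) lay above. Marker lists moved with it in the highest of these, PCB52 female 20, whose mean log2 CPM differed from the region median by -0.65 for granule cell markers, -0.70 for precursor markers and 0.37 for Purkinje cell markers. Their part in the ratio was not tested. Mog to Mag likewise ran from 0.404 to 0.724 in striatum and from 0.49 to 1.27 in cerebellum, where PCB52 male 23 was highest. Opalin to Cnp was 0.112 to 0.218 in striatum and 0.0571 to 0.102 in cerebellum, with sham female 12 the lowest and PCB52 female 24 the highest in striatum. Mbp to Cnp was 6.47 to 12 in striatum and 4.57 to 8.27 in cerebellum. Opalin was thus higher per Cnp count in every striatal library than in every cerebellar one, while the Mbp to Cnp ranges overlapped.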

How the data were processed

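RNA from tissue punches was enriched for messenger RNA by poly(A) capture or ribosomal RNA removal, without a statement of which, per the labels' protocols. FastQC, HISAT2 and the build rn6 are named per the submitters' processing notes. No versions come with these names, and neither the read counter nor the gene annotation nor strandedness is stated there. The authors deposited 1 table per region of whole-number counts per gene, not normalized. Of 15319 identifiers, 15230 (99.4%) were matched to names of the assembly GRCr8. Of 47 samples, 44 had counts, and 3 sham males were not analysed here (animal 5 in cerebellum, animals 5 and 7 in striatum). Libraries are replicates by animal number. Over 101 pairs within groups the lowest chi-square per degree of freedom was 3.49, so none was treated as deposited more than once.

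The 9 genes and all lists were chosen with earlier results of these data known. Counts were fitted as deposited in edgeR 4.0.16 under R 4.3.3, and contrasts were tested by its quasi-likelihood method, with TMM scaling, the default filter on low counts, robust dispersion, two-sided, Benjamini-Hochberg over all genes tested and a threshold of 0.05. Each region was fitted with 4 group means (12142 genes in striatum, 11690 in cerebellum) and both regions jointly with 8 (12446 genes). CPM were scaled by TMM size, within a region or, for the regional comparison, over both, and are not corrected for gene length. SE is the log2 fold change over the square root of F, and log2 levels used a prior count of 2. Genes outside the 9 were named as the 2 of lowest unadjusted p per list, those called within a region (0 genes of these lists), and the 6 per region with the highest r to the mean of the 9, of which some are not reported here. Genes of the regional comparison of lists were named after their values were seen. Alternatives were DESeq2 1.42.0, limma 3.58.1 with sample weights, other scalings, no filter, only the groups compared, each library left out, the animal as a block and the sets of libraries named in the closing section. Animals carry 1 number in both regions in the titles. Over 21 animals the r of deviations from group means between regions was -0.378 to 0.494 (median 0.0912), above 0.1 in 10. The scripts were tested on simulated counts.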

Additional observations from a re-analysis of the deposited data

Results flagged for a closer look

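Of 72 sets of values (9 genes in the 8 groups), the groups of 4 to 6 libraries were examined for a highest or lowest library set far apart from the rest, a test that chance meets in about 1 of 20 groups, and 11 values were found. In striatum, sham female 4 stood above the next sham female with 18618 against 9327 CPM for Mbp, 780.6 against 402.7 for Mag, 323.5 against 202.3 for Mog, 1606 against 964.7 for Cnp, 936.9 against 513.3 for Cldn11 and 996 against 530.5 for Mal. PCB52 female 24 stood above the next PCB52 female with 1922 against 1196 CPM for Mobp, 273.3 against 168.2 for Ugt8 and 298.2 against 195.8 for Opalin. In cerebellum, PCB52 female 20 stood above the next PCB52 female with 186.8 against 111.6 CPM for Mog and 378.3 against 223.5 for Cldn11. The 9 genes move together between libraries, so these are values of 3 animals and not 11 separate events.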

How the results depend on the processing

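All 9 genes stayed called as higher in striatum, in PCB52 and in sham animals, under the 10 other settings and with each library left out (972 of 972 values). With the animal as a replicate block, the paired fit of both regions, the median log2 difference was 1.47 in PCB52 animals and 1.18 in sham animals with 9430 and 8433 genes called. For the striatal minus the cerebellar PCB52 effect the block gave a median of 0.17, no call, and 0.54 for Ugt8 (edgeR adjusted p = 0.329). Within a region PCB52 and sham animals are different animals, so no pairing applied. Within regions none of the 9 was called under any setting run. Of 4203 values of the 9 genes under other settings, 178 changed sign, all called in neither fit, and these follow as log2 values. The cause was not tested. Libraries with transcripts of both sexes and libraries with a marker list of another tissue were left out as alternatives chosen after seeing the data. For striatum, PCB52 minus sham in females, leaving out 1 library at a time gave -0.18 to 0.22 for Cldn11, -0.12 to 0.20 for Cnp, -0.079 to 0.36 for Mag, -0.11 to 0.28 for Mal, -0.060 to 0.46 for Mbp, -0.11 to 0.36 for Mobp, -0.10 to 0.25 for Mog and -0.066 to 0.32 for Ugt8. It was 0.15 for Cldn11 and 0.21 for Cnp without the libraries with a marker list of another tissue. Only the groups compared gave 0.0011 for Cnp. TMM without the myelin lists gave 0.00064 for Cnp. It was 0.00018 for Cnp without the libraries with transcripts of both sexes. Limma gave -0.013 for Mag, -0.074 for Mal and -0.048 for Mog. No filter on low counts gave -0.00038 for Mal. Upper quartile scaling gave -0.0026 for Mal. For striatum, PCB52 minus sham in males, leaving out 1 library at a time gave -0.17 to 0.011 for Cldn11, -0.11 to 0.12 for Mbp, -0.087 to 0.16 for Mobp, -0.13 to 0.023 for Mog, -0.14 to 0.039 for Opalin and -0.16 to 0.11 for Ugt8. It was 0.071 for Mbp, 0.022 for Mog and 0.036 for Ugt8 without the libraries with a marker list of another tissue. It was 0.0098 for Mbp and 0.0034 for Mog without the libraries with transcripts of both sexes. For striatum, PCB52 minus sham as the mean of both sexes, leaving out 1 library at a time gave -0.12 to 0.080 for Cldn11, -0.10 to 0.059 for Cnp, -0.11 to 0.11 for Mag, -0.10 to 0.091 for Mal, -0.034 to 0.23 for Mbp, -0.038 to 0.20 for Mobp, -0.067 to 0.11 for Mog, -0.026 to 0.15 for Opalin and -0.046 to 0.14 for Ugt8. It was 0.073 for Cldn11, 0.091 for Cnp, 0.088 for Mag and 0.079 for Mal without the libraries with a marker list of another tissue. Limma gave -0.025 for Mog. For striatum, the female minus the male PCB52 effect, leaving out 1 library at a time gave -0.12 to 0.28 for Cldn11, -0.039 to 0.29 for Cnp, -0.0076 to 0.38 for Mal, -0.052 to 0.47 for Mbp, -0.14 to 0.32 for Mobp, -0.069 to 0.28 for Mog and -0.038 to 0.34 for Ugt8. Limma gave -0.10 for Cldn11, -0.0058 for Mal and -0.046 for Mog. It was -0.027 for Cldn11 without the libraries with transcripts of both sexes. For striatum, females minus males in PCB52 animals, leaving out 1 library at a time gave -0.19 to 0.035 for Mag, -0.17 to 0.033 for Mal, -0.27 to 0.026 for Mbp, -0.26 to 0.015 for Mobp, -0.26 to 0.0092 for Opalin and -0.26 to 0.065 for Ugt8. It was 0.00098 for Cldn11, 0.015 for Cnp, 0.087 for Mag, 0.10 for Mal, 0.074 for Mbp, 0.086 for Mog, 0.15 for Opalin and 0.041 for Ugt8 without the libraries with a marker list of another tissue. For cerebellum, PCB52 minus sham in males, leaving out 1 library at a time gave -0.092 to 0.27 for Mag, -0.056 to 0.28 for Mobp and -0.25 to 0.20 for Ugt8. Limma gave -0.036 for Ugt8. For cerebellum, PCB52 minus sham as the mean of both sexes, leaving out 1 library at a time gave -0.17 to 0.031 for Cldn11 and -0.080 to 0.11 for Mog. Limma gave -0.052 for Mog. It was -0.049 for Mog without the libraries with transcripts of both sexes. For the striatal minus the cerebellar PCB52 effect, leaving out 1 library at a time gave -0.10 to 0.12 for Cldn11, -0.015 to 0.17 for Cnp and -0.12 to 0.078 for Mog. It was 0.081 for Cldn11 and 0.0069 for Mog with the animal as a block. Limma gave 0.060 for Cldn11 and 0.024 for Mog. Upper quartile scaling gave 0.0012 for Cldn11. It was 0.16 for Cldn11 and 0.16 for Mog without the libraries with a marker list of another tissue. It was 0.068 for Cldn11 and 0.056 for Mog without the libraries with transcripts of both sexes. Genes called over the whole table were 0 by edgeR in every within-region comparison of PCB52 with sham, against DESeq2's 14 (females), 1 (males) and 0 (mean) in striatum and 10, 1 and 18 in cerebellum. For the female minus the male PCB52 effect in cerebellum edgeR called 0 and DESeq2 4, and for the striatal minus the cerebellar effect edgeR called 0 and DESeq2 3. Without the libraries with a marker list of another tissue edgeR called 1 gene in striatal females. For females minus males in PCB52 cerebellum edgeR's 0 became 4 with only the groups compared, 5 without the libraries with transcripts of both sexes, 1 without those with a marker list of another tissue and up to 3 with 1 library left out, against 9 by DESeq2 and 2 by limma. With 4 to 6 animals a group, the number of animals limits the precision, and the confidence intervals give its size.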
